A study of Caenorhabditis elegans with 12 samples.

Results

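The unc-120(st364) mutant (strain RW364) was set directly against the fhod-1(tm2363) mutant (strain XA8001) of the nematode Caenorhabditis elegans, without the wild type as an intermediate. Poly(A) RNA from whole larvae of the third larval stage (L3), raised at 15 °C, had been sequenced with Illumina's TruSeq Stranded chemistry on a NextSeq 500. The comparison takes 4 libraries of unc-120(st364) and 4 of fhod-1(tm2363), 8 of the 12 libraries of the series. The N2 wild-type libraries were left out of it and entered an alternative fit of all 12 libraries. Their levels are also printed for the genes described under the closing observations. Genes entered when their value was at least 10 in at least 4 of these 8 libraries, which kept 5683 of 23515 genes and left 17832 out. The last gene inside that limit, max-2, had a 4th-highest value of 10.0004, and the first outside, F02E9.7, had 9.99571. The genotypes are those of whole animals, and no tissue was selected in either group. The labels do not say whether the 4 libraries of a strain came from separate cultures, so the p-values below measure only the spread between these libraries. In the source-name label RW364 and XA8001 are swapped between the mutants relative to the strain, genotype and title labels; the genotype labels are followed here.

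In the body-wall muscle of the worm, actin thin filaments are anchored at dense bodies and myosin thick filaments at M-lines, in a striated lattice that grows through larval life. UNC-120 is the worm serum response factor, a MADS-box transcription factor that acts with HLH-1 (MyoD) and HND-1 in specifying and maintaining muscle. FHOD-1 is a formin, a protein that promotes the assembly and organisation of actin filaments and supports the growth of these striations. The title of the series raises the question of whether the transcription factor and the formin act on muscle growth through separate pathways. The direct contrast lists where the mutants' RNA differs and cannot answer that question. Changes shared by both mutants drop out of it, and a difference cannot be assigned to either mutant.

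Levels are given in length-scaled units proportional to TPM (transcripts scaled to a fixed library total), with the same total of 638200 in every library, and fold changes are unc-120(st364) over fhod-1(tm2363) on the log2(value + 1) scale, which understates the change of low genes. Positions are 1-based on the WBcel235 build. Depth, estimated from the step that 1 read adds to single-exon genes, was about 19200000 to 28000000 reads for the unc-120(st364) libraries and 21200000 to 26600000 for the fhod-1(tm2363) libraries, so a value of 10 in a gene of 1500 bases stands for about 475 to 601 reads. The largest axis of variation, with 55.6% of the variance, did not separate the strains. It followed the slope of a library's levels on gene length (r = 0.985 over 8 libraries that share their genes, a description). That slope was -0.05, -0.33, 0.18 and 0.18 in unc-120(st364) replicates 1 to 4, against -0.03, 0.02, -0.15 and 0.18 in the fhod-1(tm2363) replicates. The unc-120(st364) replicate 2 library lies at the short-gene end and stands apart, with correlations of 0.925 to 0.967 to the other unc-120(st364) libraries. The closest pair, unc-120(st364) replicates 3 and 4 (r = 0.996), had a median chi-square per gene of 2.33, where sampling alone gives 0.455. The other pairs within a strain had medians of 9.54 to 80.6. A value above sampling noise does not show that the 2 libraries came from separate cultures. They were kept as 2 libraries, and averaging them lowered the number of genes called below from 64 to 30. The next axis, with 24.5% of the variance, did separate the strains, with scores of 3.61 to 16.1 in unc-120(st364), against -16.4 to -3.85 in fhod-1(tm2363). None of 33 major sperm protein genes and none of 6 vitellogenin genes reached a value of 10 (highest 1.11 and 1.64), so the sperm and yolk programmes of later stages were at or near 0 in all 8 libraries.

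**Figure D1:**
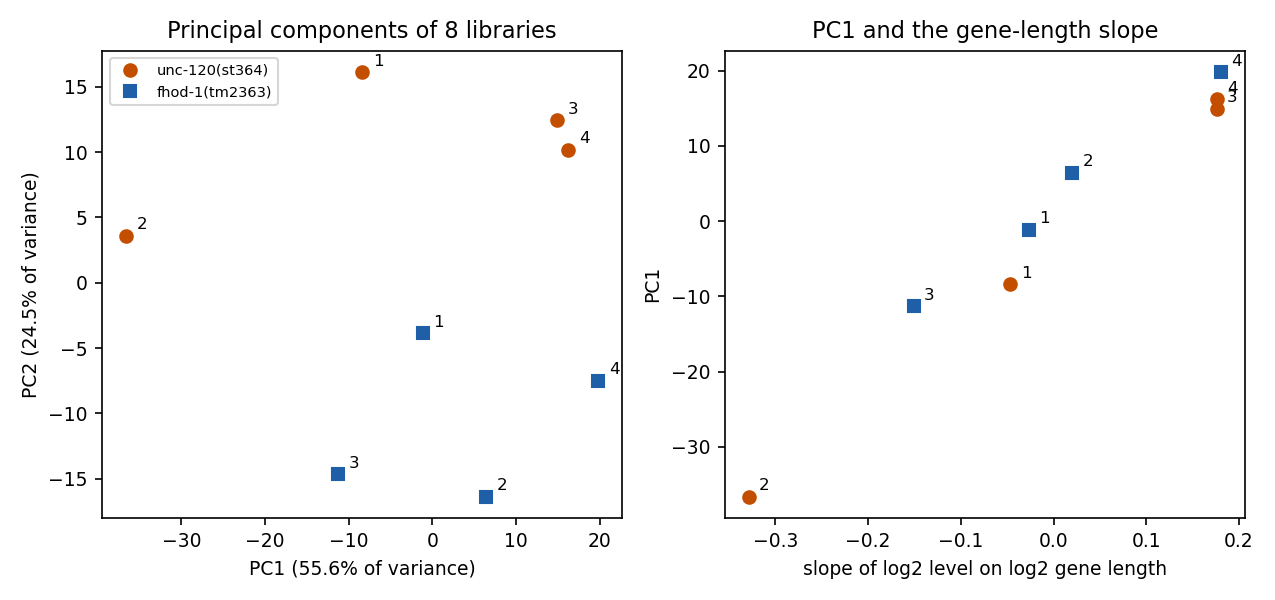
Left, the first principal components of the 8 libraries, each in percent of variance, for unc-120(st364) (circles) and fhod-1(tm2363) (squares), with the replicate number beside each point. Right, PC1 against the slope of log2 level on log2 gene length in each library. The strains separate on PC2 only, and unc-120(st364) replicate 2 sits alone at a PC1 of -36.6 and a slope of -0.33.

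The mutated genes themselves were compared first. The unc-120 gene (WBGene00006844, chromosome I, 8460225 to 8463015, plus strand) had levels of 28.2, 25.6, 37.0 and 43.1 in the unc-120(st364) libraries, against 18.1, 19.4, 17.4 and 20.3 in the fhod-1(tm2363) libraries. Every unc-120(st364) library lay above every fhod-1(tm2363) library, with means of 33.5 ± 8.04 and 18.8 ± 1.299 (SD, n = 4 each). The log2 fold change was 0.77 (SE 0.17); the two-sided exact permutation test gave p = 0.0286, the smallest that 4 against 4 libraries allow, while limma's adjusted p over all genes was 0.0688, so the gene was not called. After correction of each library for gene length limma's adjusted p was 0.00759. The unc-120 gene overlaps D1081.17 on the other strand, and whether the authors' counting used strand is not given in the sources used here. The fhod-1 gene (WBGene00016735, chromosome I, 5058251 to 5068829, minus strand) lay below the filter, at 4.03, 2.23, 5.97 and 5.65 in unc-120(st364), against 3.85, 6.16, 3.21 and 5.94 in fhod-1(tm2363). The groups overlapped (4.47 ± 1.72 against 4.79 ± 1.48, SD, n = 4 each), with a log2 difference of -0.11 and an exact permutation p of 0.8. That difference was 0.13 without unc-120(st364) replicate 2 and 0.0079 without fhod-1(tm2363) replicate 2. These are levels over whole genes; the sources used here do not say which exons the alleles alter, so they do not check the alleles. For hlh-1, the MyoD homologue, the levels of 3.19 ± 0.47 in unc-120(st364), against 3.82 ± 0.29 in fhod-1(tm2363) (SD, n = 4 each), gave a two-sided exact permutation p of 0.0857, and hnd-1 was near 0 in all 8 libraries.

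Across the 5683 genes, limma called 64 (Benjamini-Hochberg adjustment, threshold 0.05), or 1.13% of those tested. In unc-120(st364) 12 of them (0.211% of the genes tested) were higher and 52 (0.915%) were lower. At an unadjusted p under 0.05 there were 604 genes, 177 higher and 427 lower. All 64 called genes had groups that did not overlap. Having groups apart was also a condition for naming the largest rises and falls, so for them it is not a further result. Over all genes, 130 had every unc-120(st364) library above every fhod-1(tm2363) library (2.29%) and 268 had every one below (4.72%). Of the called genes 41 differed at least 2-fold, 8 up and 33 down in unc-120(st364), and 3 rose and 6 fell at least 4-fold. The fitted changes of all genes were balanced, with 2665 higher, 3018 lower and a median of -0.02. Rises made up 18.8% of the calls, and 40.2% after length correction, so the share of falls was smaller there. With that correction 140 genes were higher and 208 lower in unc-120(st364) (348 of 5676 genes, 6.13%), and 62 of the 64 genes were among those calls. Leaving out 1 library moved the count between 20, without fhod-1(tm2363) replicate 2, and 128, without unc-120(st364) replicate 2. It was 38, 31 and 40 without unc-120(st364) replicates 1, 3 and 4, and 39, 34 and 34 without fhod-1(tm2363) replicates 1, 3 and 4. A set of 20 genes was called in all 8 of those fits. Of the 64, 16 passed the filter only through fhod-1(tm2363) and 3 only through unc-120(st364), where 26 and 8 of the 5683 genes tested did. Another gene overlaps 17 of the 64, and that share was not counted over all genes tested.

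**Figure D2:**
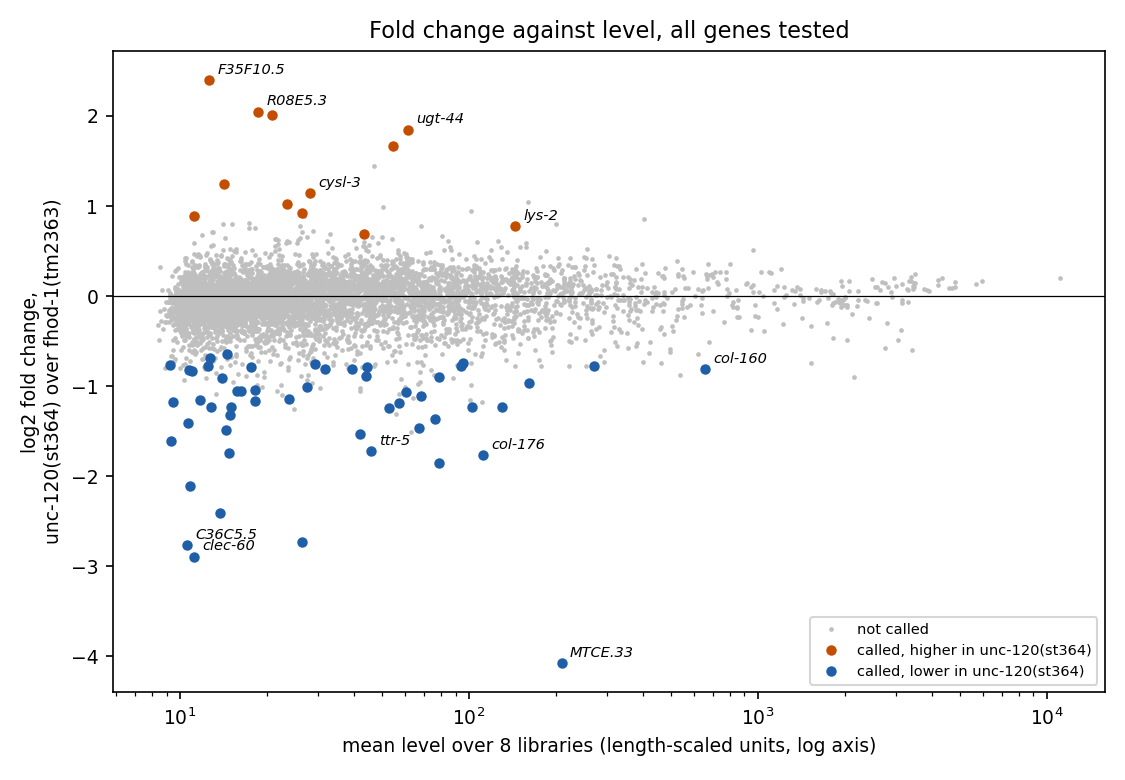
Each point is 1 of the 5683 genes tested, with the mean level over the 8 libraries in length-scaled units (log axis) and the log2 fold change of unc-120(st364) over fhod-1(tm2363). Filled points are the 12 genes called higher and the 52 called lower in unc-120(st364); MTCE.33, the mitochondrial large ribosomal RNA, has the largest change at -4.08.

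Among the called rises were 3 of the 72 tested detoxification enzymes (4.17%, where 0.211% of all genes were called higher), a list of cytochromes P450, glutathione transferases and UDP-glycosyltransferases that oxidise or conjugate foreign compounds and the body's own lipophilic molecules. The largest was ugt-44 (WBGene00008486, chromosome IV, 10469741 to 10471899, plus strand), a UDP-glycosyltransferase. It had levels of 60.7, 92.0, 118 and 118.8 in unc-120(st364), against 19.0, 32.0, 26.8 and 25.6 in fhod-1(tm2363), a log2 fold change of 1.85 (limma's adjusted p = 0.00307, SE 0.23). The lowest unc-120(st364) library lay above the highest fhod-1(tm2363) library, and the gene was called in all 8 fits that left out 1 library. The glutathione transferase gst-22 (chromosome V, 16231032 to 16232317, minus strand) stood at 26.7, 43.8, 32.4 and 25.2 in unc-120(st364), against 16.8, 15.2, 16.7 and 11.5 in fhod-1(tm2363) (log2 fold change 1.02, limma's adjusted p = 0.0356, SE 0.19). The cytochrome P450 gene cyp-14A5 (chromosome V, 5421018 to 5423488, minus strand) measured 41.6, 29.2, 36.1 and 33.4 in unc-120(st364), against 18.8, 17.9, 16.6 and 18.05 in fhod-1(tm2363) (log2 fold change 0.93, limma's adjusted p = 0.0094, SE 0.14). Neither gene's groups overlapped, which the rule for naming the largest rises required. Without fhod-1(tm2363) replicate 2 limma's adjusted p was 0.138 for gst-22, which was called in 2 of the 8 fits that left out 1 library, and 0.0593 for cyp-14A5, called in 7 of 8. The list as a whole was balanced, with 33 of 72 members fitted higher, 39 lower and a median of -0.03, and none was called lower. Whole larvae were sequenced, so for any gene restricted to a cell type, fewer such cells and less RNA per cell cannot be told apart.

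Another 5 of the 10 largest called rises lay within 1 megabase of chromosome V. F35F10.5 (WBGene00018055, chromosome V, 3284929 to 3285792, plus strand), which overlaps str-64 on the same strand, had the largest rise. It measured 31.7, 19.0, 18.9 and 18.3 in unc-120(st364), against 4.54, 3.15, 3.23 and 2.34 in fhod-1(tm2363), a log2 fold change of 2.40 (limma's adjusted p = 0.000425, SE 0.22). R08E5.3 (WBGene00019963, chromosome V, 3772021 to 3775546, plus strand), listed under the current symbol rips-1, came next with 42.6, 23.9, 31.3 and 25.4 in unc-120(st364), against 7.18, 6.28, 6.26 and 6.33 in fhod-1(tm2363) (log2 fold change 2.05, limma's adjusted p = 0.000391, SE 0.18). Its neighbour cysl-3 (WBGene00019962, chromosome V, 3774533 to 3776136, minus strand), a member of the cysteine synthase-like family, overlaps it on the opposite strand. The rise with the smallest SE among the called rises was that of cysl-3, at 37.7, 39.1, 38.5 and 42.0 in unc-120(st364), against 17.2, 16.7, 18.04 and 17.1 in fhod-1(tm2363), a log2 fold change of 1.14 (limma's adjusted p = 0.000789, SE 0.12). In this pair the levels of 1 gene may include reads of the other. The nearby genes T20D4.12 (chromosome V, 3397065 to 3397800, plus strand) and T20D4.10 (chromosome V, 3400252 to 3401063, plus strand) rose as well. For both, replicate 1 was the highest library in unc-120(st364) and also in fhod-1(tm2363). Between them lies T20D4.11 (log2 fold change -0.41, limma adjusted p = 0.662), which was not called. T20D4.12 had 52.7, 33.8, 24.4 and 24.9 in unc-120(st364), against 11.1, 6.96, 8.07 and 4.39 in fhod-1(tm2363) (log2 fold change 2.01, limma's adjusted p = 0.00799, SE 0.29). T20D4.10 had 137, 77.7, 64.8 and 59.0 in unc-120(st364), against 33.2, 21.6, 27.1 and 18.7 in fhod-1(tm2363) (log2 fold change 1.66, limma's adjusted p = 0.0149, SE 0.27). All 5 had groups that did not overlap, which the rule for naming them required. F35F10.5 and R08E5.3 also passed the filter only through unc-120(st364), so these had to differ. F35F10.5, R08E5.3 and cysl-3 were called in each fit that left out 1 library, while without fhod-1(tm2363) replicate 2 limma's adjusted p was 0.0501 for T20D4.12 and 0.0913 for T20D4.10, both called in 7 of 8.

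The same megabase, positions 3000000 to 4000000 of chromosome V, also held 3 called falls, C36C5.5, C04E12.2 and lys-7. In all 8 of its 35 tested genes were called (22.9%), against 15 of the 1079 tested genes on the rest of the chromosome (1.39%), and the median log2 fold change of the 35 was -0.05. Of the 8, C36C5.5 passed the filter only through fhod-1(tm2363), and F35F10.5 and R08E5.3 only through unc-120(st364), so these had to differ; without all genes that passed through a single strain the counts were 5 of 32 (15.6%) in the window and 11 of 1070 (1.03%) on the rest of the chromosome. This window was chosen after the values were seen, so the shares are a description. Among all megabase windows with tested genes it was the 1 window with 5 or more called genes, and the next had 3. Chromosome V as a whole held 23 called genes of 1114 tested, 8 higher and 15 lower in unc-120(st364), or 2.06%. The other nuclear chromosomes held between 4 and 11 each. Along the window the 8 called genes ran in mixed directions. C36C5.5 (start 3157077), C04E12.2 (3369081) and lys-7 (3481421) fell, while F35F10.5 (3284929), T20D4.12 (3397065), T20D4.10 (3400252), R08E5.3 (3772021) and cysl-3 (3774533) rose.

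The remaining rises among the 10 largest were Y48E1B.8 (chromosome II, 13585705 to 13589033, plus strand) and K08D8.4 (chromosome IV, 12907469 to 12909998, minus strand). Y48E1B.8 had 21.9, 13.9, 21.6 and 24.3 in unc-120(st364), against 9.36, 5.07, 7.45 and 10.7 in fhod-1(tm2363) (log2 fold change 1.24, limma's adjusted p = 0.0338, SE 0.23). K08D8.4 had 16.5, 13.1, 17.4 and 12.5 in unc-120(st364), against 8.68, 7.96, 7.35 and 6.16 in fhod-1(tm2363) (log2 fold change 0.89, limma's adjusted p = 0.0323, SE 0.17). Both were called in 2 of the 8 fits that left out 1 library, with limma adjusted p-values of up to 0.112 for Y48E1B.8 without fhod-1(tm2363) replicate 2 and up to 0.126 for K08D8.4 without unc-120(st364) replicate 3. K08D8.4 passed the filter only through unc-120(st364), so it had to differ. The other called rises were lys-2, described with the lysozymes, and dhs-25, a short-chain dehydrogenase (log2 fold change 0.68, limma adjusted p = 0.0364), which is named here after its values were seen; dhs-25 was called in 1 of the 8 fits that left out 1 library, with 0.146 without fhod-1(tm2363) replicate 2.

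The largest difference of the comparison was in mitochondrial ribosomal RNA. The worm's mitochondrial genome encodes 12 respiratory chain proteins and the RNAs of its own ribosome. MTCE.33, the large ribosomal RNA (WBGene00014472, mitochondrial genome, 10403 to 11354, plus strand), measured 31.0, 14.2, 23.0 and 24.4 in unc-120(st364), against 469.5, 335, 376 and 404 in fhod-1(tm2363). No unc-120(st364) library came near the fhod-1(tm2363) range, and the log2 fold change was -4.08 (limma's adjusted p = 1.13e-05, SE 0.22). The small ribosomal RNA, MTCE.7 (WBGene00014454, mitochondrial genome, 898 to 1593, plus strand), measured 45.2, 22.5, 33.8 and 33.8 in unc-120(st364), against 162, 119.4, 118.9 and 95.1 in fhod-1(tm2363) (log2 fold change -1.85, limma's adjusted p = 0.00233, SE 0.22). Both were called in every fit that left out 1 library. Among the mitochondrial messages nduo-3, a subunit of respiratory complex I which lies 1 base from the large ribosomal RNA and overlaps nduo-5 on the same strand in the annotation table, had 62.3, 40.0, 28.3 and 19.5 in unc-120(st364), against 117, 92.1, 99.5 and 80.8 in fhod-1(tm2363). Its groups did not overlap, with a log2 fold change of -1.46 (limma's adjusted p = 0.0478, SE 0.30), but it was called in only 2 of the 8 fits that left out 1 library and reached 0.168 without fhod-1(tm2363) replicate 2.

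All 14 mitochondrial transcripts tested were fitted lower in unc-120(st364), with a median of -0.59, and 3 (21.4%) were called lower, where 0.915% of all genes were. Groups did not overlap in 5 of the 14 (background 4.72%). Without unc-120(st364) replicate 2, the median was -0.30, 13 were fitted lower and 4 were called lower. In that fit 97 of all 5683 genes were called lower. The messages differed less than the ribosomal RNAs. The 7 complex I messages had a median log2 fold change of -1.05 (range -1.51 to -0.19), and the 5 messages for cytochrome oxidase, cytochrome b and ATP synthase had one of -0.49 (range -0.60 to -0.38), with none called. Summed over the 12 messages, the level ran from 7631 to 21413 in unc-120(st364), against from 16513 to 24345 in fhod-1(tm2363), so the groups overlapped. Summed ribosomal RNA was 57.0 ± 16.1 in unc-120(st364), against 520.1 ± 76.7 in fhod-1(tm2363) (SD, n = 4 each). Set against the messages of the same genome in the same library, ribosomal RNA came to 0.356% to 0.482% in unc-120(st364), against 2.59% to 2.88% in fhod-1(tm2363), ranges that lie apart. The libraries were made from poly(A) RNA, and whether the amount of ribosomal RNA or its capture differed was not tested. Of the nuclear genes of oxidative phosphorylation, 22 of 43 were fitted higher and 21 lower, the median was 0.03 and none was called. The members with the smallest p were cox-17, a copper chaperone of cytochrome oxidase (log2 fold change 0.44, limma adjusted p = 0.577), and asb-1, an ATP synthase subunit (0.19, limma adjusted p = 0.704).

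**Figure D3:**
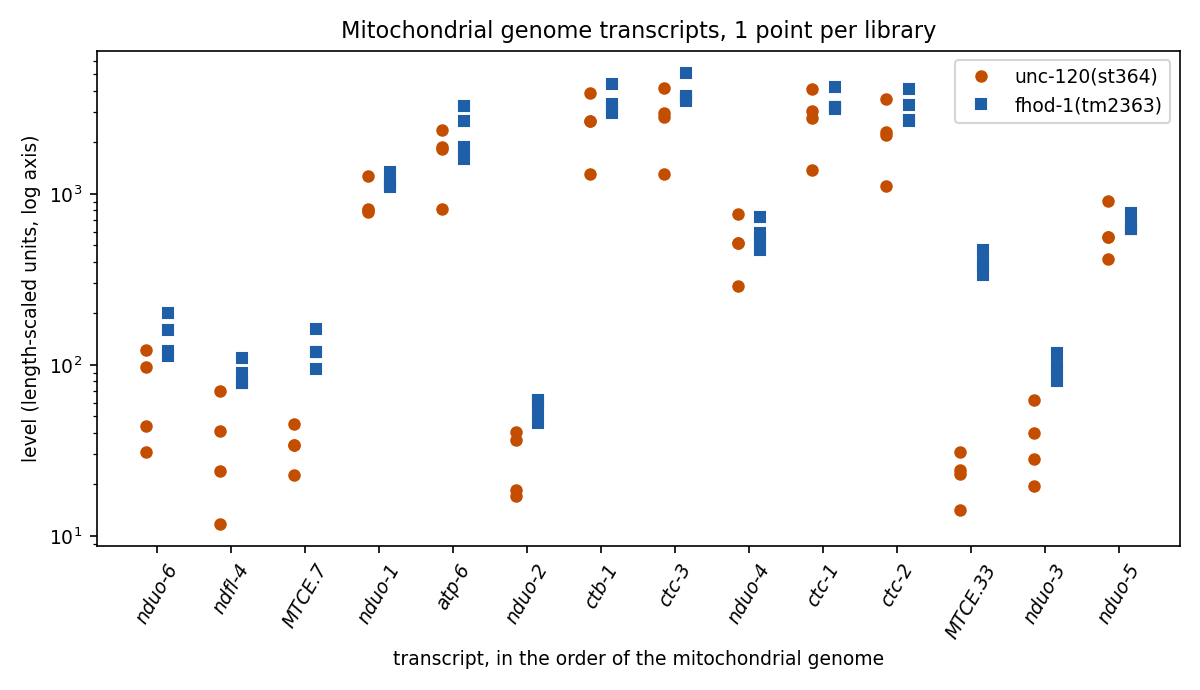
Levels of the 14 mitochondrial transcripts in length-scaled units (log axis), in the order of the mitochondrial genome, with 1 point per library for unc-120(st364) (circles) and fhod-1(tm2363) (squares). The ribosomal RNAs MTCE.7 and MTCE.33 lie apart between the strains in every library, while most messages overlap.

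The next largest falls were in genes of defence, cuticle and unknown function. The C-type lectin clec-60 (WBGene00014046, chromosome II, 10480152 to 10481846, minus strand), a secreted carbohydrate-binding protein gene known for its induction by gut infection, measured 3.71, 1.73, 1.44 and 1.06 in unc-120(st364), against 18.1, 19.0, 18.4 and 25.8 in fhod-1(tm2363). Its log2 fold change was -2.90 (limma's adjusted p = 0.000391, SE 0.26). C36C5.5 (WBGene00016474, chromosome V, 3157077 to 3157870, plus strand) had 2.12, 2.15, 1.41 and 1.89 in unc-120(st364), against 27.9, 15.3, 19.7 and 14.1 in fhod-1(tm2363) (log2 fold change -2.77, limma's adjusted p = 0.000242, SE 0.22). The collagen col-176 (WBGene00000749, chromosome X, 10077597 to 10078602, plus strand), a structural protein of the cuticle, had 49.8, 52.1, 46.8 and 51.3 in unc-120(st364), against 199, 177, 149 and 169 in fhod-1(tm2363) (log2 fold change -1.77, limma's adjusted p = 0.000194, SE 0.13). All 3 were called in each fit that left out 1 library, and for clec-60 and C36C5.5 the highest unc-120(st364) library lay several-fold below the lowest fhod-1(tm2363) library. The transthyretin-related ttr-5 (WBGene00008040, chromosome III, 9330316 to 9330928, plus strand) measured 17.5, 30.9, 14.9 and 21.9 in unc-120(st364), against 60.1, 81.6, 75.2 and 64.8 in fhod-1(tm2363) (log2 fold change -1.72, limma's adjusted p = 0.00269, SE 0.21). The isocitrate dehydrogenase gamma subunit idhg-2 (WBGene00016266, chromosome I, 6974558 to 6977100, plus strand), an enzyme of the citric acid cycle, had 5.97, 8.01, 6.69 and 7.77 in unc-120(st364), against 24.2, 20.1, 20.8 and 21.9 in fhod-1(tm2363) (log2 fold change -1.49, limma's adjusted p = 0.000553, SE 0.14). Both were also called in every fit that left out 1 library. Of the genes in this paragraph clec-60, C36C5.5 and idhg-2 passed the filter only through fhod-1(tm2363), so these had to differ.

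The other large falls came in part as overlapping pairs on opposite strands, whose reads may not be told apart where the genes overlap. C08E3.1 (chromosome II, 1633806 to 1634089, plus strand) and C08E3.13 (chromosome II, 1631995 to 1633850, minus strand) overlap only from position 1633806 to 1633850. Their exonic lengths are 285 and 275 bases. C08E3.1 had 3.12, 11.9, 5.51 and 6.06 in unc-120(st364), against 42.5, 49.4, 54.4 and 38.3 in fhod-1(tm2363) (log2 fold change -2.73, limma's adjusted p = 0.00111, SE 0.29). C08E3.13 had 1.74, 6.57, 3.31 and 4.03 in unc-120(st364), against 20.96, 25.6, 27.6 and 20.8 in fhod-1(tm2363) (log2 fold change -2.41, limma's adjusted p = 0.00151, SE 0.27). In both genes the highest unc-120(st364) library was replicate 2. Y105C5A.12 (chromosome IV, 15641476 to 15641799, minus strand) lies inside the span of Y105C5A.13 (chromosome IV, 15641215 to 15643828, plus strand). Y105C5A.12 had 14.999, 34.5, 18.5 and 18.1 in unc-120(st364), against 57.0, 76.4, 71.4 and 44.5 in fhod-1(tm2363) (log2 fold change -1.53, limma adjusted p = 0.0189). Y105C5A.13 had 3.77, 9.21, 4.32 and 4.72 in unc-120(st364), against 15.1, 18.9, 17.6 and 11.5 in fhod-1(tm2363) (log2 fold change -1.41, limma adjusted p = 0.0255). Without fhod-1(tm2363) replicate 2 limma's adjusted p was 0.102 for Y105C5A.12 and 0.133 for Y105C5A.13, called in 3 and 2 of the 8 fits. T05C12.15 (chromosome II, 8169573 to 8169862, plus strand), which overlaps T05C12.11 on the other strand, had 2.37, 5.89, 3.46 and 2.67 in unc-120(st364), against 17.1, 18.4, 20.3 and 16.4 in fhod-1(tm2363) (log2 fold change -2.11, limma's adjusted p = 0.00111, SE 0.22). C50B6.7 (chromosome V, 13322369 to 13324979, minus strand) had 11.1, 4.31, 4.86 and 5.78 in unc-120(st364), against 25.4, 28.0, 17.6 and 21.6 in fhod-1(tm2363) (log2 fold change -1.74, limma's adjusted p = 0.00933, SE 0.26), with 0.0593 without fhod-1(tm2363) replicate 2. The groups of all 6 genes were apart, which the rule for naming them required. C08E3.13, Y105C5A.13 and T05C12.15 also passed the filter only through fhod-1(tm2363), so these had to differ.

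**Figure D4:**
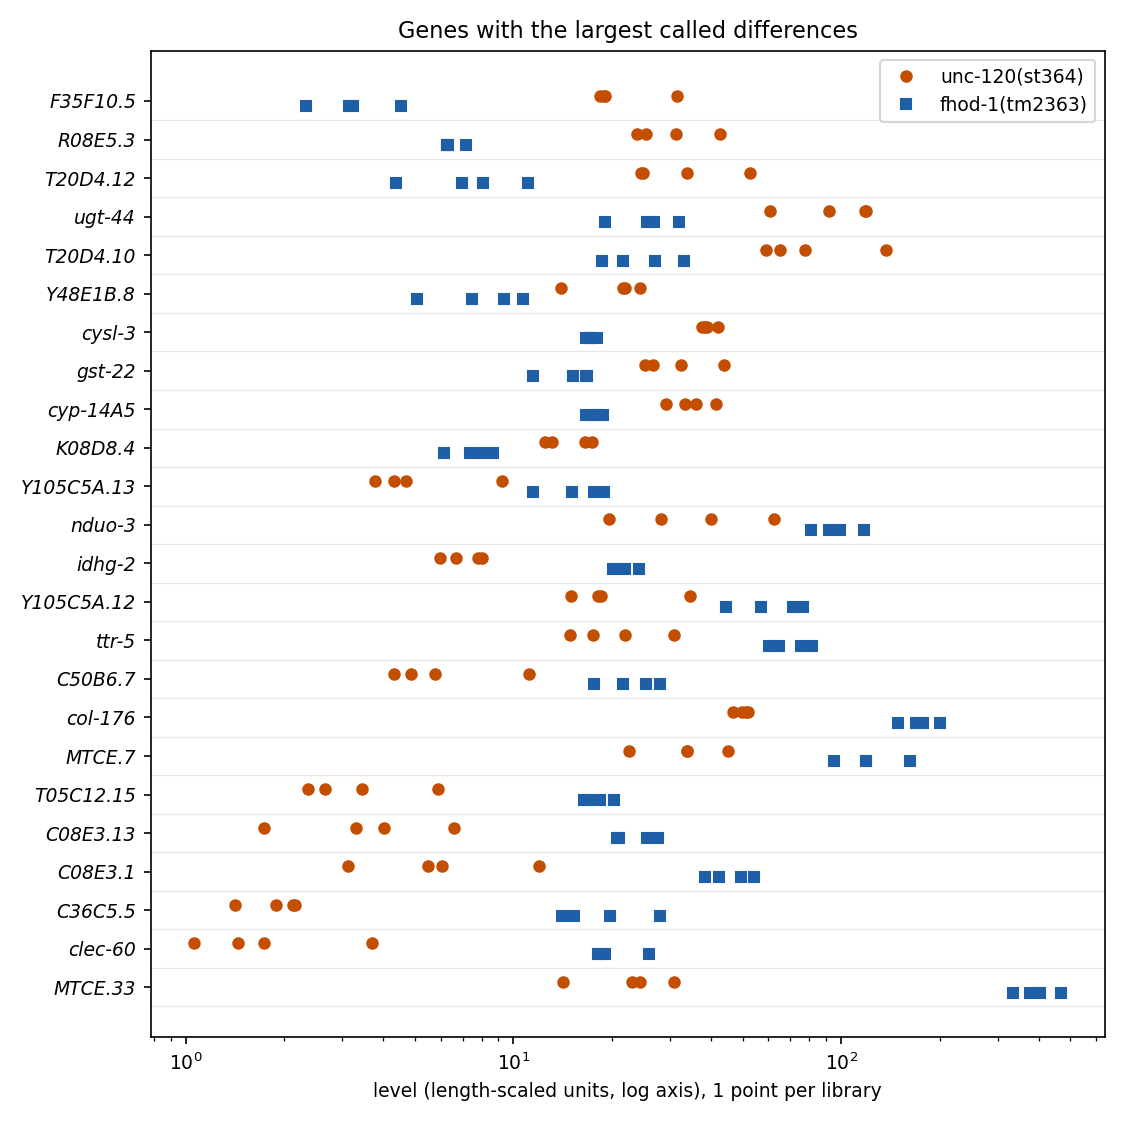
Levels in length-scaled units (log axis) of the 10 called genes with the largest rises and the 14 with the largest falls among those with a mean of at least 10 and groups apart, with 1 point per library, unc-120(st364) as circles drawn above fhod-1(tm2363) as squares. No gene's groups overlap, which the choice of genes required. MTCE.33 shows the widest gap among the falls, followed by C36C5.5 and clec-60, and F35F10.5 the widest among the rises.

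Structural genes of muscle were fitted lower in unc-120(st364) without passing the test. Of the thick filament and M-line genes, which build and align the myosin filaments, 9 of 9 tested were fitted lower in unc-120(st364) (median -0.51). The same held for 18 of 18 thin filament genes (median -0.35), 20 of 20 dense body and attachment genes (median -0.29) and 6 of 6 genes of the muscle membrane and calcium handling (median -0.30). Under upper-quartile scaling 19 of the 20 dense body genes were fitted lower, and under quantile normalization 18 of 20; the other 3 counts did not move under either scaling. None of these genes was called, against 1.13% of all genes and a median of -0.02 over all genes. The lowest member was the troponin I gene tni-3 at -1.26 (limma adjusted p = 0.209), named after its values were seen. Those with the smallest p were the myosin heavy chain myo-3, the M-line protein unc-98, the troponin I gene tni-1, the thin-filament protein unc-87, the paxillin pxl-1 and the dense body protein dim-1. For myo-3 (chromosome V, 12226816 to 12234343, minus strand) the levels were 31.9, 24.3, 54.8 and 49.3 in unc-120(st364), against 65.2, 97.4, 56.7 and 100.5 in fhod-1(tm2363), groups that did not overlap. Its log2 fold change was -1.01 (limma's adjusted p = 0.16, SE 0.28). For tni-1 (chromosome X, 11375887 to 11377470, minus strand) they were 227, 258, 269 and 310.2 in unc-120(st364), against 338, 399, 389.6 and 383 in fhod-1(tm2363), again apart, with a log2 fold change of -0.51 (limma's adjusted p = 0.16, SE 0.14). The limma adjusted p was 0.18 for unc-87 (log2 fold change -0.60), 0.165 for pxl-1 (-0.50), 0.221 for unc-98 (-0.39) and 0.24 for dim-1 (-0.82). The calcium store proteins csq-1 (calsequestrin) and jph-1 (junctophilin) had log2 fold changes of -0.33 and -0.38 (limma adjusted p = 0.608 and 0.757).

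The muscle values changed with the treatment of gene length and with unc-120(st364) replicate 2. After each library was corrected for length, the medians were -0.46, -0.31, -0.22 and -0.17 in the same order of lists, and 4 of 9 thick filament, 4 of 18 thin filament, 6 of 20 dense body and 0 of 6 membrane genes were called lower, where 3.66% of all genes were called lower. Under that correction limma's adjusted p was 0.00251 for myo-3, 0.00765 for dim-1, 0.0395 for unc-87 and 0.0465 for pxl-1. Without unc-120(st364) replicate 2 the uncorrected medians were -0.40, -0.21, -0.15 and -0.03, with 9, 13, 14 and 5 members fitted lower and none called. The summed level of the thin filament genes was 3843 to 4725 in unc-120(st364), against 4744 to 5558 in fhod-1(tm2363), and that of the thick filament genes 2097 to 3425 in unc-120(st364), against 3188 to 4312 in fhod-1(tm2363), so the thin filament sums were apart and the thick filament sums overlapped. Of the muscle transcription factors 2 passed the filter, unc-120 itself and mef-2, another MADS-box factor, with 8.80, 6.86, 13.4 and 14.96 in unc-120(st364), against 9.34, 13.5, 11.01 and 15.1 in fhod-1(tm2363) (log2 fold change -0.18, limma adjusted p = 0.884); without unc-120(st364) replicate 2 the change was 0.007. None of the 6 formin genes in the table passed it.

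Markers of other tissues moved with the muscle lists in part. All 10 tested markers of pharyngeal muscle and glands, the feeding pump, were fitted lower in unc-120(st364) (median -0.62) and none was called. Their summed level was 246 to 462 in unc-120(st364), against 389.7 to 609 in fhod-1(tm2363), and their part in the muscle values was not tested. Among them tni-4, a pharyngeal troponin I, and phat-2, a gland protein gene, had log2 fold changes of -0.47 and -0.45 (limma adjusted p = 0.211 and 0.273), with groups apart. Of the neuron markers 10 of 11 were fitted lower (median -0.13; 7 of 11 under quantile normalization), with egl-21, a neuropeptide-processing carboxypeptidase, at -0.53 (limma adjusted p = 0.451) and flp-1 at -0.31 (limma adjusted p = 0.614). Of the intestine markers 8 of 11 were fitted lower (median -0.14), with the gut proteases asp-1 at -0.47 and cpr-1 at -0.49 (limma adjusted p = 0.427 and 0.591). Epidermis markers were split, with 5 of 9 higher and a median of 0.00; the cuticle collagen dpy-7 was at 0.53 (limma adjusted p = 0.16) and the GATA factor elt-3 at -0.12 (limma adjusted p = 0.892), or 0.02 without unc-120(st364) replicate 2. Of the germline markers 4 of 5 tested were fitted higher (median 0.15), among them glh-1 and wago-1 at 0.25 and 0.27 (limma adjusted p = 0.817 and 0.803), and 18 of 23 were below the filter. No marker of these tissues was called. Without unc-120(st364) replicate 2 the medians were -0.45 for pharynx, -0.05 for neurons, 0.03 for intestine, 0.23 for epidermis and 0.39 for germline, so the sign of the intestine median turned.

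The cuticle is rebuilt at each molt by the epidermis from many collagens, some named for the body shape their mutants have and most only numbered. The classes had medians of opposite sign. All 15 tested shape-setting collagens were fitted higher in unc-120(st364) (median 0.36, range 0.01 to 0.55; 14 of 15 under quantile normalization), with none called. Their members with the smallest p were dpy-7, at 352, 277, 302 and 282 in unc-120(st364), against 241, 182, 200.1 and 218 in fhod-1(tm2363), and dpy-3, at 192, 135, 210.0 and 177 in unc-120(st364), against 138, 112, 89.9 and 149 in fhod-1(tm2363). The groups lay apart for dpy-7 and overlapped for dpy-3 (log2 fold change 0.55, limma adjusted p = 0.315). The molting and apical matrix genes act in building the new cuticle and shedding the old one, some as regulators. Of these, 22 of 23 were fitted higher (median 0.32), with none called and no member's groups apart. Under upper-quartile scaling or quantile normalization 23 of 23 were fitted higher. Their leading members mlt-8 and lpr-1 had log2 fold changes of 0.33 and 0.34 (limma adjusted p = 0.443 and 0.543). Of the numbered collagens, in contrast, 50 of 66 were fitted lower (median -0.17), and 12 had every unc-120(st364) library below every fhod-1(tm2363) library (background 4.72%). Of the 66, 3 were called lower (4.55%, where 0.915% of all genes were). Besides col-176 these were the neighbours col-159 and col-160 on chromosome V. The levels of col-159 (chromosome V, 13198230 to 13199315, minus strand) were 141, 88.9, 117 and 95.8 in unc-120(st364), against 208, 223, 215 and 210.4 in fhod-1(tm2363) (log2 fold change -0.97, limma's adjusted p = 0.0189, SE 0.16), with 0.102 without fhod-1(tm2363) replicate 2. Those of col-160, named after its values were seen, were 521, 376, 545 and 478 in unc-120(st364), against 801, 812, 803 and 940.5 in fhod-1(tm2363) (log2 fold change -0.81, limma adjusted p = 0.0323, up to 0.128 without fhod-1(tm2363) replicate 2). Collagen and molting genes rise and fall within each larval stage, and the part of the larvae's position within the stage was not tested.

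Genes of defence against microbes held calls in both directions. Of 29 C-type lectins, 22 were fitted lower (median -0.38), 11 had groups apart in that direction (background 4.72%) and 5 were called lower (17.2%, where 0.915% of all genes were). The calls were clec-60, clec-5, clec-86, clec-50 and clec-80. Of the 29 lectins, 5 passed the filter only through fhod-1(tm2363), among them clec-60 and clec-80. These 5 had to differ and are among the 11 with groups apart. Of the 24 lectins that reached the filter value in both strains, 3 were called. For clec-5 (chromosome III, 4881909 to 4883606, minus strand) the levels were 13.6, 7.95, 10.1 and 12.01 in unc-120(st364), against 26.8, 28.1, 21.99 and 24.6 in fhod-1(tm2363) (log2 fold change -1.17, limma's adjusted p = 0.00933, SE 0.17), and 0.0593 without fhod-1(tm2363) replicate 2. The other 3, named after their values were seen, had log2 fold changes of -0.91 for clec-86, -0.78 for clec-50 and -0.77 for clec-80 (limma adjusted p = 0.011, 0.0239 and 0.0492), and were called in 5, 1 and 2 of the 8 fits that left out 1 library. Of 24 lysozymes and saposin-like proteins, which lyse bacteria, 19 were fitted lower (median -0.27), while 1 was called in each direction. Over all genes 0.211% were called higher and 0.915% lower. The lysozyme lys-7 (chromosome V, 3481421 to 3482600, minus strand) measured 27.7, 43.8, 42.6 and 59.1 in unc-120(st364), against 97.4, 121, 101 and 120.1 in fhod-1(tm2363) (log2 fold change -1.37, limma's adjusted p = 0.0107, SE 0.21). Its family member lys-2 (chromosome V, 10280310 to 10281474, minus strand) went the other way, with 178, 188, 178 and 184 in unc-120(st364), against 124, 102, 106 and 93.8 in fhod-1(tm2363) (log2 fold change 0.77, limma's adjusted p = 0.021, SE 0.13). Without fhod-1(tm2363) replicate 2 limma's adjusted p was 0.0693 for lys-7 and 0.112 for lys-2. Antimicrobial peptide genes were balanced, with 18 of 34 fitted higher and a median of 0.03 (-0.16 without unc-120(st364) replicate 2), and none was called. Their leading members were fipr-22 (0.76, limma adjusted p = 0.225) and fipr-5 (0.89, limma adjusted p = 0.333).

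Genes linked to insulin signalling and lifespan included the pud and dod genes, several of them named as downstream of the DAF-16 transcription factor. All 9 tested were fitted lower in unc-120(st364) with a median of -0.79, and 6 had groups apart in that direction (background 4.72%). These 6 include dod-3, the 1 member called (11.1%, where 0.915% of all genes were called lower). The filter forced its groups apart. The gene dod-3 (chromosome V, 2730594 to 2731098, minus strand), which passed the filter only through fhod-1(tm2363), was called, at 7.13, 8.80, 7.42 and 8.35 in unc-120(st364), against 16.1, 31.1, 20.03 and 20.04 in fhod-1(tm2363) (log2 fold change -1.32, limma's adjusted p = 0.00933, SE 0.19), also in each of the 8 fits that left out 1 library. The next, pud-2.2, had 57.4, 50.2, 34.9 and 51.4 in unc-120(st364), against 87.5, 103, 67.9 and 92.0 in fhod-1(tm2363) (log2 fold change -0.85, limma adjusted p = 0.0682). Near-identical pud copies may share reads. After length correction 6 of the 9 were called lower, where 3.66% of all genes were. The catalases ctl-1 and ctl-3, which break down hydrogen peroxide and are near-identical neighbours, led the list of metal and oxidative stress genes. Their log2 fold changes were -0.71 and -0.72 (limma adjusted p = 0.0834 and 0.0832), with groups apart. That list was balanced otherwise (6 of 14 higher, median -0.03, none called). Its highest member, named after its values were seen, was kreg-1, with 28.4, 74.0, 99.9 and 78.7 in unc-120(st364), against 13.5, 30.8, 31.4 and 20.3 in fhod-1(tm2363). The groups overlapped, and the log2 fold change of 1.45 had an SE of 0.38 (limma adjusted p = 0.126).

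Secreted signals and digestive enzymes were mostly fitted lower. Of 38 neuropeptides and insulins, 34 were lower (median -0.34), 8 had groups apart in that direction (background 4.72%) and none was called. The FMRFamide-like peptide genes flp-4 and flp-21 had the smallest p. The levels of flp-4 were 22.6, 21.1, 23.7 and 25.9 in unc-120(st364), against 34.05, 38.5, 35.8 and 33.4 in fhod-1(tm2363) (log2 fold change -0.59, limma's adjusted p = 0.0588, SE 0.12), and flp-21 had a log2 fold change of -0.65 (limma adjusted p = 0.0885). A neuropeptide gene outside the list, nlp-51, was called lower (-0.78, limma adjusted p = 0.021), as was a calponin-family gene outside the muscle lists, cpn-3 (-0.78, limma adjusted p = 0.0344); both were named after their values were seen. Without fhod-1(tm2363) replicate 2 limma's adjusted p was 0.112 for nlp-51 and 0.154 for cpn-3, called in 4 and 1 of the 8 fits that left out 1 library. Of 37 transthyretin-related genes, a large secreted family, 32 were lower (median -0.20) and 1, ttr-5, was called (2.70%, where 0.915% of all genes were called lower). Next came ttr-44 at -0.49 (limma adjusted p = 0.173). Of 17 digestive proteases 14 were lower (median -0.23) and the aspartyl protease asp-14 was called (5.88%, where 0.915% of all genes were called lower). It had 41.6, 21.9, 37.3 and 37.2 in unc-120(st364), against 113, 80.7, 59.2 and 66.9 in fhod-1(tm2363) (log2 fold change -1.18, limma adjusted p = 0.0492), overlaps fah-1 on the same strand and was called in 1 of 8 fits that left out 1 library. Its relative asp-13 had a log2 fold change of -0.50 (limma adjusted p = 0.223).

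Core metabolism and protein synthesis were close to level between the strains. Of 80 cytosolic ribosomal protein genes 52 were fitted higher (median 0.07, or -0.01 without unc-120(st364) replicate 2) and none was called; rpl-25.2 and rpl-1 had the smallest p, at -0.31 and -0.30 (limma adjusted p = 0.647 and 0.702). Of 49 chaperones 27 were higher (median 0.00) and none was called, with hsp-25 and hsp-12.2 leading at -0.47 and -0.56 (limma adjusted p = 0.423 and 0.63). Of 52 fatty acid genes 37 were higher (median 0.11) and 1 was called lower (1.92%, where 0.915% of all genes were). This was the lysosomal lipase lipl-5 (chromosome V, 385713 to 388090, plus strand), at 25.5, 32.2, 31.7 and 33.6 in unc-120(st364), against 62.7, 56.8, 52.7 and 57.7 in fhod-1(tm2363) (log2 fold change -0.89, limma's adjusted p = 0.0106, SE 0.14), and 0.0593 without fhod-1(tm2363) replicate 2. The acyl-CoA dehydrogenase acdh-2 was at 0.66 (limma adjusted p = 0.138). Of 15 genes of amino acid and one-carbon metabolism 11 were higher (median 0.11) and none was called. Among these were cth-2, a cystathionine gamma-lyase, at -0.35 (limma adjusted p = 0.398), and asns-2, an asparagine synthetase, at 0.44 (limma adjusted p = 0.426). A p that misses the threshold does not show that levels were equal.

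**Figure D5:**
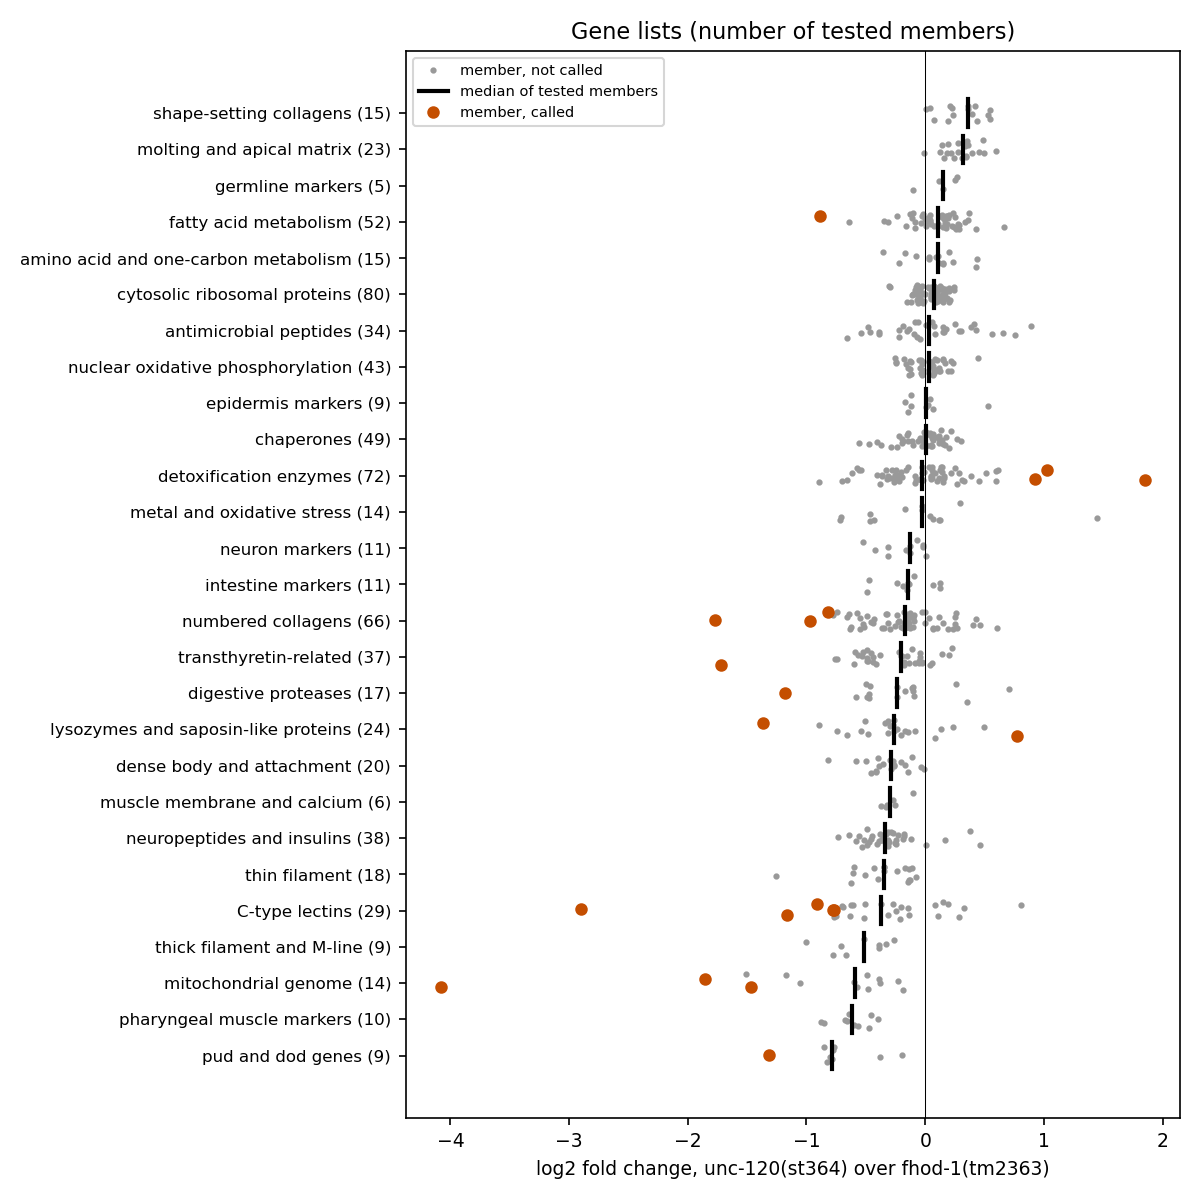
Log2 fold change of unc-120(st364) over fhod-1(tm2363) for each tested member of the gene lists with more than 2 tested members, ordered by the median (bar), with the number of tested members in parentheses; grey points were not called and large points were called. The shape-setting collagen and molting lists lie to the right with medians of 0.36 and 0.32 and no call, and the pud and dod, pharyngeal and mitochondrial lists lie furthest to the left.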

How the data were processed

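RNA of 12 libraries was measured, and the 8 libraries of the mutants were analysed. The deposited values, called normalized counts, summed to 638200 in every library and behaved as values divided by gene length, so they were treated as proportional to TPM, as the authors deposited them. The fixed plan had assumed normalized counts and its filter was kept. Per the submitters' processing notes, Bowtie2 2.2.5, Partek and WBcel235 were used; the annotation and the strand setting of the counting are not given in the sources used here. For 2673 single-exon genes, 97.9% to 99.6% of low values (under 20 reads) times exonic length lay within 0.05 of a whole multiple of 1 step per library, which gave the approximate depths; lengths came from Ensembl release 115, which holds 99.5% of the identifiers. The end of a gene is printed as 1 less than in the deposited table, which matches that release.

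Genes that reached a value of 10 in 4 or more of the 8 libraries were fitted on log2(value + 1) with limma 3.58.1 (lmFit, eBayes with a trend, two-sided) in R 4.3.3, without covariates, with Benjamini-Hochberg adjustment over all genes fitted and a threshold of 0.05. The mutated genes were also compared with two-sided exact permutation tests. Other steps used pandas 2.3.3 and matplotlib 3.10.9 in Python 3.11.15. Named genes were the mutated genes, the 10 largest rises and 14 largest falls among called genes whose mean reached 10 and whose groups were apart, and the 2 members with the smallest p of each of 29 gene lists; others are marked as named after their values were seen. The members and lists were chosen with earlier results of these data known, so lists are given as counts and medians with no test. The alternatives were pseudocounts, filters, scalings, a loess correction for log2 exonic length (span 0.5, degree 1), the length slope as a covariate, all 12 libraries in the fit, no trend, the replicate number as a block, and leaving out each library. The fitting procedure was also tested on simulated data.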

Additional observations from a re-analysis of the deposited data

Results flagged for a closer look

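Among 144 groups of 4 libraries checked for the named genes, 7 held a library far from the other 3; chance flags about 1 group in 20. F35F10.5 was 31.7 in unc-120(st364) replicate 1, against 18.3 to 19.0 in the other unc-120(st364) libraries. R08E5.3 was 7.18 in fhod-1(tm2363) replicate 1, against 6.26 to 6.33 in the others of that strain. The lectin clec-60 was 25.8 in fhod-1(tm2363) replicate 4, against 18.1 to 19.0. Calsequestrin, csq-1, was 129 in fhod-1(tm2363) replicate 4, against 101 to 105. The pharyngeal gland gene phat-2 was 38.6 in fhod-1(tm2363) replicate 2, against 26.0 to 27.2. The ribosomal protein gene rpl-25.2 was 1736 in fhod-1(tm2363) replicate 3, against 1163 to 1253. The neuropeptide gene flp-21 was 37.9 in unc-120(st364) replicate 2, against 29.6 to 29.8. The groups of F35F10.5, R08E5.3, clec-60, phat-2 and flp-21 lie apart, so leaving out such a library could not make them overlap. For F35F10.5, R08E5.3 and clec-60 the rule for naming them required groups apart.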

How the results depend on the processing

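Against 64 called genes, alternatives gave 61 (pseudocount 0.5), 68 (pseudocount 10), 68 (upper-quartile scaling), 60 (quantile normalization), 83 (all 12 libraries) and 65 (no trend). The count was 175 with every gene above 0 (23111 tested), 236 when a value of 1 in 4 libraries sufficed (12609 tested), 28 with a mean of at least 50 (1638 tested), 348 with length correction and 679 with each library's length slope as a covariate (205 higher, 474 lower). Leaving out 1 library gave 20 to 128. With unc-120(st364) replicates 3 and 4 averaged, an alternative chosen after seeing the data, it was 30. In every fit falls outnumbered rises. The library titles carry the letters K to N in each strain, and whether a shared letter marks a pair is not stated. Same-numbered deviations correlated at 0.660, -0.013, -0.709 and 0.850, and those of different numbers at -0.840 to 0.869. The largest axis of variation followed gene length, so these values cannot decide whether the numbers pair the libraries. The main fit did not pair them. The fit with the replicate block called 45 genes (11 higher and 34 lower, 37 of them among the 64). The block with length correction called 735 (316 higher and 419 lower). Leaving out 1 library, the fhod-1 difference ran from -0.25 to 0.13, positive without unc-120(st364) replicate 2 and (0.0079) without fhod-1(tm2363) replicate 2; exact tests of 3 against 4 cannot reach 0.05. The mef-2 change ran from -0.33 to 0.0070 and that of elt-3 from -0.18 to 0.021, positive without unc-120(st364) replicate 2. The cause was not tested. Of the other values of named genes and lists, 1975 kept direction and side of the threshold, 87 gained a call and 87 lost one. List medians changed sign in at least 1 alternative for the intestine, epidermis, nuclear oxidative phosphorylation, ribosomal protein, antimicrobial, detoxification, chaperone and metal and oxidative stress lists, and for no other list. Depth limits only low genes: a value of 1 in a gene of 1500 bases stands for about 47.5 to 60.1 reads.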

Other observations

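A lower filter, a value of 1 reached in 4 of the 8 libraries, brought 12609 genes into the fit and added 151 calls. In unc-120(st364) 37 of these were higher and 114 lower. Those described here were chosen after their values were seen. The neuronal gene unc-119 (chromosome III, 10902648 to 10908927, plus strand), a standard pan-neuronal marker, measured 3.28, 3.40, 3.27 and 3.49 in unc-120(st364), against 11.8, 9.54, 11.1 and 9.48 in fhod-1(tm2363). The groups lay apart, with a log2 fold change of -1.39 (limma's adjusted p = 2.07e-04, SE 0.13), and the wild-type libraries ran from 2.39 to 3.82. The 11 neuron markers that passed the stricter filter held no call.

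The methyltransferase-family gene comt-5 (chromosome V, 2052231 to 2053600, minus strand) measured 5.34, 7.71, 5.51 and 6.96 in unc-120(st364), against 0.395, 1.04, 1.20 and 0.884 in fhod-1(tm2363), with wild-type libraries at 5.58 to 8.30. Its log2 fold change was 1.98 (limma's adjusted p = 1.25e-04, SE 0.17). The ribonuclease H gene rnh-1.3 (chromosome I, 9710093 to 9710767, minus strand) measured 7.92, 8.14, 6.34 and 6.40 in unc-120(st364), against 1.48, 1.73, 1.63 and 1.75 in fhod-1(tm2363), with wild-type libraries at 0.902 to 1.49 (log2 fold change 1.62, limma's adjusted p = 8.34e-05, SE 0.13). For rnh-1.3 every unc-120(st364) library and 3 of the 4 fhod-1(tm2363) libraries lay above the wild-type range.

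Close to the mutated gene, the noncoding RNA D1081.16 (chromosome I, 8459041 to 8459254, plus strand) ends 970 bases before the start of unc-120. It measured 3.61, 3.19, 7.995 and 7.46 in unc-120(st364), about 24 to 64 reads, and was listed at 0 in all 4 fhod-1(tm2363) libraries and at 0 to 0.143 in the wild type. It overlaps D1081.15 on the other strand.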
